A study of Mus musculus with 12 samples.

Results

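CDR3s holding the residues YGSS, taken as the core of the tyrosine frame of the heavy chain diversity segment Ighd1-1 (DFL16.1), were examined in splenic B cells. Members were chosen from translations without a stop, as those whose CDR3 held YGSS between the cysteine at the end of VH and the tryptophan of J, both anchors left out of the CDR3. They numbered 288 of 546610 unique translated sequences with a located CDR3, and they were read 436 times in all. The B cells came from spleens of female MRL/lpr SLE prone mice aged 14 weeks, of which 6 had received control SMO and 6 had received LFPRLR SMO, a splice-modulating oligomer that knocks down the long form of the prolactin receptor. Both groups carried the lpr mutation of Fas, both received an oligomer, and the amplicons ran from VHJ558 to Cμ, so VH segments of other families and class-switched transcripts were not measured.

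The heavy chain CDR3 is built by joining a VH, a D and a J segment, with bases trimmed and added at both joints. A D segment can be read in several frames, and mouse repertoires favour the frame rich in tyrosine. Ighd1-1, one of the long mouse D segments, is known to give the residues YYYGSSY in this frame. Whether the segment of MRL mice does so could not be seen here. In the RefSeq annotation of GRCm38.p6 (strain C57BL/6J) it lies at chr12:113482170-113482192 and is 23 bases long, upstream of the 4 J segments. The bases of the germline segment were not available here, so members are called by the residues they hold, and no D segment was assigned by alignment.

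The commonest spelling of YYYGSSY is shown first beside that of YYYDGSY, a motif of the same length that was far more frequent in these libraries, with capitals at the bases where they differ.
YYYGSSY: tattactacgGtAgtagctac
YYYDGSY: tattactacgAtGgtagctac
Counted from 1 at the 5′ end of the upper sequence, the differences are G11A and A13G. The upper spelling made up 14 of 18 nucleotide sequences with YYYGSSY, and the lower one 7046 of 7634 with YYYDGSY.

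YGSS was rare in every library. It was held by 0.00343% to 0.331% of located CDR3s (median 0.00862%) in control SMO-treated mice and by 0.00377% to 0.203% (median 0.0145%) in LFPRLR SMO-treated mice. YDGS, by contrast, was held by 5.88% to 9.04% of CDR3s (median 7.94%), and the library with the most YGSS still held 23.2 times as much YDGS. The comparison with YDGS was added after its values were seen. The D segment behind YDGS was not assigned, and whether it was Ighd1-1 was not tested. YGSS was thus no common reading in these mice. Use of Ighd1-1 itself was not measured, since the bases of the MRL segment were not available, so the members are called CDR3s holding YGSS.

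Members were concentrated in a pair of control libraries. Control SMO replicate 8 held 190 members in 57346 CDR3s (0.331%, 95% Wilson interval 0.288% to 0.382%), and control SMO replicate 3 held 53 in 66792 (0.0794%, 0.0607% to 0.104%). Together they held 243 of 288 members, or 84.4%. The other libraries held between 1 and 15 members each, with shares of 0.00343% to 0.0357% apart from LFPRLR SMO replicate 6. In that library 1 member among 493 CDR3s gave 0.203%, with an interval of 0.0358% to 1.14%, and a count of 0 there would have allowed a share of up to 0.609%. LFPRLR SMO replicate 8 followed with 15 members (0.0357%, 0.0216% to 0.0588%). Intervals cover counting error only, since no molecular identifiers are described and a molecule can be read more than once.

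**Figure D1:**
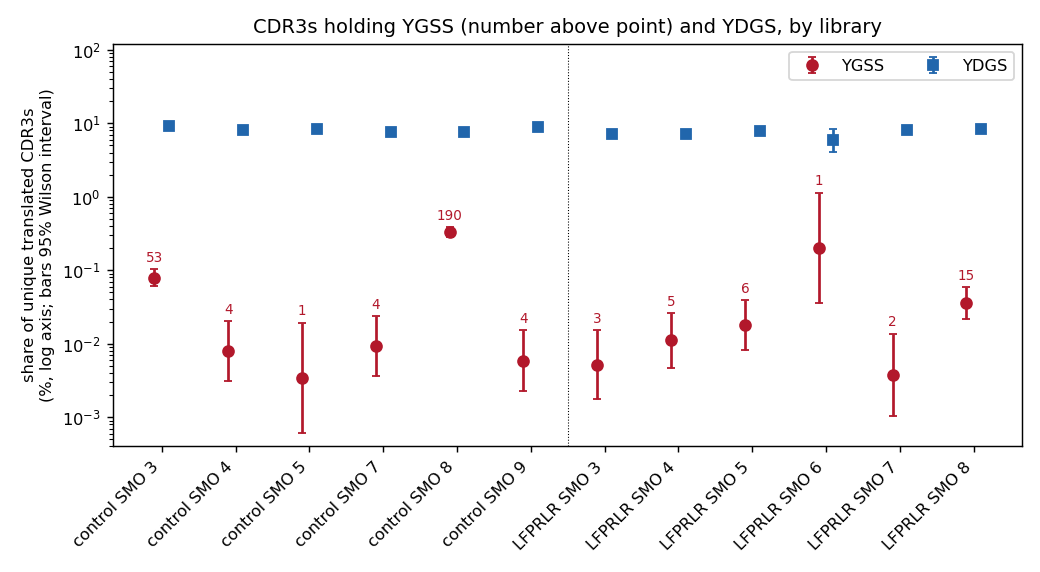
Share of unique translated CDR3s holding YGSS (circles, with the number of members) and YDGS (squares) in each of the 12 libraries, on a log axis with 95% Wilson intervals. Control SMO 8 (0.331%) and control SMO 3 (0.0794%) stand above the libraries of similar depth, while YDGS lies between 5.88% and 9.04% throughout.

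The groups overlapped, and the share of members did not pass the test between them. The difference in medians, LFPRLR SMO minus control SMO, was 0.00586 percentage points (exact Mann–Whitney *U* test, two-sided p = 0.937, adjusted p = 0.937 over 10 comparisons). By reads, shares ran from 0.000755% to 0.136% (median 0.00438%) in the control group and from 0.00209% to 0.176% (median 0.00504%) in the LFPRLR SMO group, again with an exact p = 0.937. The highest control value by reads was that of replicate 8, and the highest LFPRLR SMO value was 1 read of replicate 6. As background, 67 residue motifs of length 4 were held by at least 1% of CDR3s on average over the libraries. Of these, 4 (5.97%) had an unadjusted exact p under 0.05 between the groups, and 0 of 67 (0%) passed after adjustment. YGSS was too rare for that list. A limit of 0.05% on average, set after the data were seen, took in 2323 motifs. Of these, 235 had an unadjusted exact p under 0.05, and 0 passed after adjustment. YGSS met this limit only through a few libraries, as its median share over the 12 libraries was 0.0102%. Its exact p was 0.937 and its adjusted p was 0.985.

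Members were mostly read once in the control pair. In control SMO 8, 149 of 190 members had 1 read (78.4%, against 68.8% of all its CDR3s), and in control SMO 3 it was 45 of 53 (84.9%, against 67.7%). They were also diverse, with 172 distinct CDR3s among the 190 members of control SMO 8 and 51 among the 53 of control SMO 3. In LFPRLR SMO 8, by contrast, the 15 members came from 6 distinct CDR3s, and 9 of them had 1 read (60%, against 68.8%). Control SMO 4 (50% against 61.4%) and LFPRLR SMO 7 (50% against 62.5%) also lay below their own libraries, with 4 and 2 members.

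The nucleotide spelling of YGSS separated members into 2 kinds. The commonest 12-base spelling is given below with its first alternative, in capitals where the letters encode the motif.
commonest: TACGGTAGTAGC
next: TATGGTAGCTCC
The first was found in 230 of 303 nucleotide sequences of members and the second in 20. A further 16 sequences matched the first 11 bases of the commonest spelling and differed at its last base, so 246 sequences (81.2%) were counted with it. Of these, 242 came from control SMO 3 (49 sequences) and control SMO 8 (193). The remaining 4 came from control SMO 5 (1), LFPRLR SMO 5 (2) and LFPRLR SMO 6 (1), and the other 7 libraries held none. At their depth a count of 0 allows at most 0.00443% to 0.00713% of CDR3s, below the 0.0719% of control SMO 3.

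**Figure D2:**
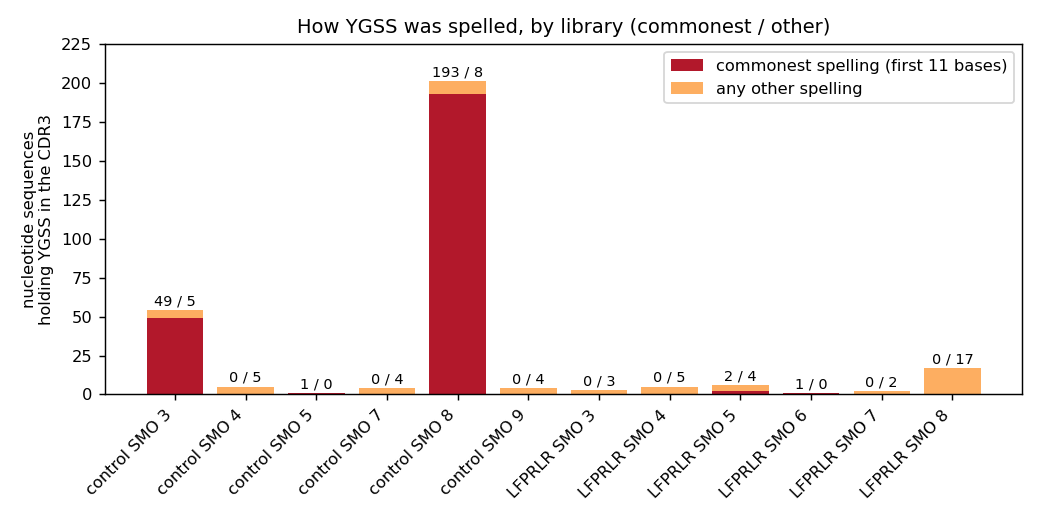
Number of nucleotide sequences of members in each library, split into the commonest spelling of YGSS (first 11 bases, dark) and any other spelling (light). Control SMO 8 holds 193 and control SMO 3 holds 49 of the commonest spelling, whereas 7 libraries hold none.

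Other spellings were spread over 10 of 12 libraries at low level. They were found in 57 sequences, with shares of CDR3s from 0 to 0.0357% (median 0.00774%), and in control SMO 3 and 8 they accounted for only 5 and 8 sequences. Sequences with the commonest spelling shared a median run of 17 bases (11 to 21) with the YYYGSSY sequence above, of which 11 are shared by definition of the kind, against 8 bases (5 to 10) with the YYYDGSY sequence. Both differing bases lie within those 11, so a run through the motif could not exceed 10 bases with YYYDGSY. The contrast for this kind thus follows from its definition. Sequences with another spelling shared a median of 6 bases with YYYGSSY and 9 with YYYDGSY. Of these 57, 39 shared the longer run with YYYDGSY, 4 with YYYGSSY and 14 the same run with both.

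The YYYGSSY sequence has 6 bases before the motif and 3 after it, and members of the commonest spelling kept them in part. In control SMO 8 a median of 4 of 6 bases before the motif matched, with all 6 in 34 of 193 sequences (17.6%) and none in 9, and a median of 2 of 3 bases after it, with all 3 in 93 (48.2%) and none in 60. Control SMO 3 had the same medians, with all 6 bases before in 6 of 49 sequences (12.2%) and none in 0, and with all 3 after in 23 (46.9%) and none in 13. Tyrosine preceded YGSS in 125 of 185 such members of control SMO 8 (67.6%) and followed it in 91 (49.2%), and in control SMO 3 it preceded the motif in 36 of 48 (75%) and followed it in 25 (52.1%). Aspartate was the next residue before the motif in both libraries (22 and 8 members). The whole YYYGSSY was found in 14 and 4 members, and in no other library.

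The tyrosine frame was the main reading of the commonest spelling. Among sequences with V and J in frame and the 12-base spelling in the CDR3, 234 of 275 read it as YGSS (85.1%, 80.4% to 88.8%), 41 read it in the frame that gives the hydrophobic run TVV, and 0 read it in the third frame, which holds stop codons. Control SMO 8 had 185 of 218 in the tyrosine frame (84.9%) and control SMO 3 had 46 of 53 (86.8%). Out of frame between V and J were 5 sequences, of which 1 read the spelling in the tyrosine frame.

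The CDR3s of members were on average longer than the rest in most libraries. In control SMO 8 members averaged 14.1 residues against 11.3 for all other CDR3s, and in control SMO 3 they averaged 13.6 against 11.6. The commonest length was 14 residues in the former (55 of 190 members) and 13 residues in the latter (16 of 53), and lengths ran from 8 to 20 residues. Over the 12 libraries the mean length of members exceeded that of the rest by a median of 1.63 residues (-1.01 to 3.98), and it was higher in 10 of 12 (exact sign-flip test, p = 0.00537, adjusted p = 0.0269 over 5 comparisons). Leaving out any 1 of control SMO 3, 4 or 8 or LFPRLR SMO 4, 5, 6 or 7 brought the adjusted exact p to 0.0537, and leaving out control SMO 3 and 8 together left 1.28 residues with an adjusted exact p = 0.107. Of the 12 libraries, 8 held 5 or fewer members, so their means rest on very few sequences.

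**Figure D3:**
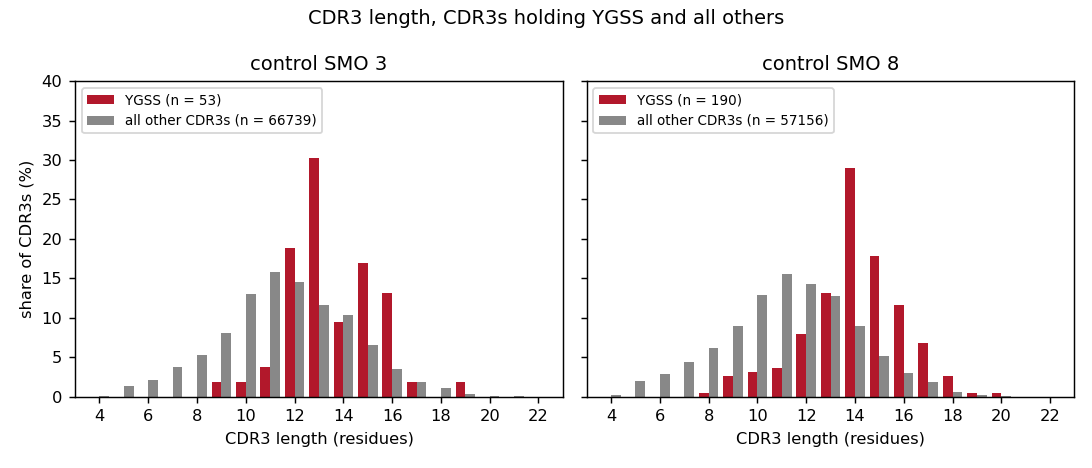
Distribution of CDR3 length in residues for members and for all other CDR3s of control SMO 3 and control SMO 8, as a percentage of each. Members peak at 13 residues in control SMO 3 and at 14 in control SMO 8, to the right of the other CDR3s.

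Holding 4 given residues itself takes room in a CDR3, so members were also set against CDR3s with a tyrosine frame motif of the Ighd2 family, the DSP2 segments (YGYD, YDYD, YGNY or DGYY), of which there were 34291. Members were a median of 0.261 residues longer than these (-2.16 to 2.54), longer in 6 of 12 libraries, and the difference did not pass (exact sign-flip p = 0.659). In control SMO 8 the difference was 1.48 residues and in control SMO 3 it was 0.628. The place of the motif did not pass a test either, with 0.540 more residues before it (exact p = 0.457) and 0.0725 more after it (exact p = 0.790), medians over 12 libraries. Counted over all members, YGSS began most often after 5 residues (87 of 288) or 4 residues (74), and was most often followed by 6 residues (99) or 5 (63). No difference between the groups passed in member length (difference of medians -0.0613 residues, exact p = 0.667), in residues before the motif (-0.783, exact p = 0.582) or after it (-0.405, exact p = 0.511).

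Members of the control pair were joined to Ighj1 more often than other CDR3s. Most of these members, but few other CDR3s, had the C form of the Cμ end described below. The 2 forms themselves differed in Ighj1 share, so the contrast need not be particular to YGSS. Ighj1, the J segment nearest to the D segments, was carried by 68 of 189 members with an assigned J in control SMO 8 (36.0%, 29.5% to 43.0%) against 8.66% of the rest. In control SMO 3 it was 12 of 53 (22.6%, 13.5% to 35.5%) against 8.78%. By reads the Ighj1 shares of members were 43.0% and 25.4%. Ighj4 was lower among members in both, with 35 of 189 (18.5%) against 31.7% and 7 of 53 (13.2%) against 34.4%. Ighj2 was close to the rest in both, with 30.7% against 30.5% and 26.4% against 28.9%. Ighj3 lay below the rest in control SMO 8 (14.8% against 29.1%) and above it in control SMO 3 (37.7% against 28.0%), where the interval of members, 25.9% to 51.2%, held the value of the rest.

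**Figure D4:**
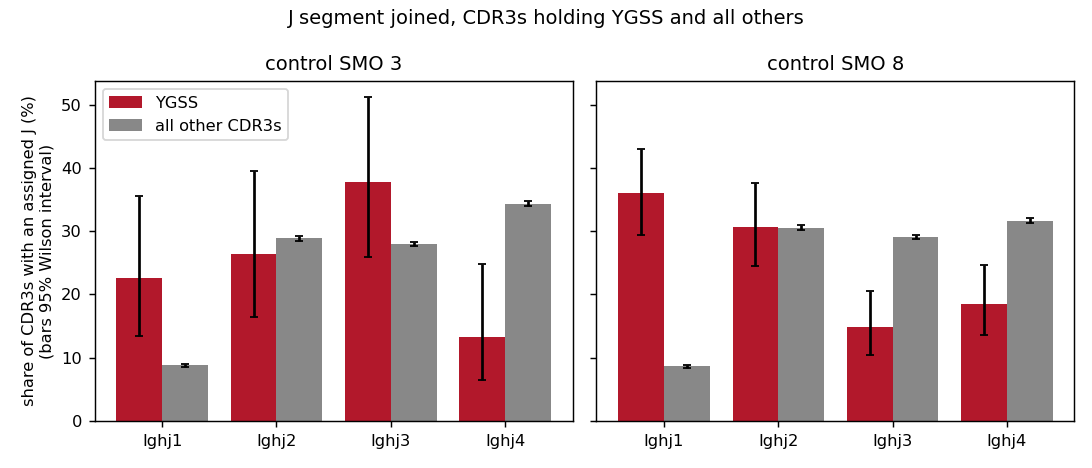
Share of members and of all other CDR3s joined to Ighj1, Ighj2, Ighj3 and Ighj4 in control SMO 3 and control SMO 8, with 95% Wilson intervals. Ighj1 is higher among members (22.6% and 36.0%) than among the rest (8.78% and 8.66%) in both libraries, and Ighj4 is lower.

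Over all 12 libraries no difference in J partner between members and the rest passed the test. The median difference was -8.60 percentage points for Ighj1 (-13.3 to 27.3, higher in 5 of 12 libraries, adjusted exact p = 0.641), 3.23 for Ighj2 (adjusted exact p = 0.630), -15.4 for Ighj3 (adjusted exact p = 0.983) and -28.1 for Ighj4 (adjusted exact p = 0.427). In most libraries no member carried Ighj4, and in most none carried Ighj1, mainly on very few members. There the difference is only the share of the rest with a minus sign, so these 2 medians do not measure a depletion. Without control SMO 7, whose 4 members all carried Ighj4, the Ighj4 difference stayed at -28.1 and its adjusted exact p was 0.0244. Without any other 1 library the adjusted exact p ran from 0.364 to 0.674. Among the 41 members with another spelling outside control SMO 3 and 8, 15 carried Ighj2, 13 Ighj3, 11 Ighj4 and 2 Ighj1. Between the groups, no J share of members passed (exact p = 0.372 to 0.848, all adjusted p = 0.937). Members of the control pair with the commonest spelling were longer than the rest whichever J they carried. Holding the motif takes room here too, and they were not set against the Ighd2 CDR3s by J. In control SMO 3 they numbered 12 (Ighj1), 12 (Ighj2), 19 (Ighj3) and only 5 (Ighj4). With each of the 4 J segments, members of the commonest spelling were longer than other CDR3s with the same J, by 2.40 (Ighj1), 2.45 (Ighj2), 2.81 (Ighj3) and 2.76 residues (Ighj4) in control SMO 8 and by 2.10, 1.99, 2.28 and 1.61 residues in control SMO 3.

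Ighj1 occurred in 2 forms, which differ in the residue after the tryptophan and glycine, and members carried the rarer of them. Inbred strains are known to carry Ighj1 with alanine or threonine there. The alanine form (WGAGT) made up 94.9% of Ighj1 CDR3s in control SMO 8 and 98.3% in control SMO 3, yet all 68 and 12 members with Ighj1 in these libraries had the threonine form (WGTGT). Of 253 CDR3s with the threonine form in control SMO 8, 68 held YGSS (26.9%, 21.8% to 32.7%) and 3 held YDGS. Of 96 in control SMO 3, 12 held YGSS (12.5%, 7.30% to 20.6%) and 1 held YDGS. The alanine form went with the reverse, as 2 of 48539 such CDR3s over all libraries held YGSS and 7.94% to 16.7% per library held YDGS. The threonine form was found in 2 to 8 CDR3s in each of the other 10 libraries. In LFPRLR SMO 6 these were 2 of 65 CDR3s with Ighj1 (3.08%), and in the remaining 9 libraries at most 0.295%. The 2 members with Ighj1 and the commonest spelling of LFPRLR SMO 5 had the threonine form too.

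The constant region end of the amplicon went with the spelling as well. A phenylalanine codon in the Cμ end was TTC or TTT (here the C form and the T form). In 6 libraries (control SMO 4, 7 and 9 and LFPRLR SMO 3, 4 and 7) the C form made up 33.2% to 40.1% of sequences, and in the other 6, control SMO 3 and 8 among them, 0.135% to 2.30%. In control SMO 8, 185 of 193 sequences with the commonest spelling had the C form (95.9%, 92.0% to 97.9%), against 1.67% of its sequences without YGSS. In control SMO 3 it was 38 of 48 (79.2%, 65.7% to 88.3%) against 0.746%. The 4 sequences of control SMO 5, LFPRLR SMO 5 and LFPRLR SMO 6 all had the C form. Sequences of another spelling had it in 1 of 8 in control SMO 8, 0 of 5 in control SMO 3, 1 of 4 in LFPRLR SMO 5 (against 0.159% of its sequences without YGSS) and 0 of 16 in LFPRLR SMO 8.

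Seen from the other side, sequences of the C form in the control pair were rich in YGSS and poor in YDGS. In control SMO 8, 185 of 1305 held YGSS in its commonest spelling (14.2%, 12.4% to 16.2%) and 9 held YDGS (0.690%, 0.363% to 1.31%), while 4971 of 65954 sequences of the T form held YDGS (7.54%) and 8 held the YGSS spelling. In control SMO 3, 38 of 596 sequences of the C form held the YGSS spelling (6.38%, 4.68% to 8.63%) and 23 held YDGS (3.86%, 2.59% to 5.72%), against 10 and 6770 of 74222 sequences of the T form. The Ighd2 motifs were less unequal, at 9.73% of the C form and 6.56% of the T form in control SMO 8 and at 7.21% and 6.52% in control SMO 3. In control SMO 8, Ighj1 was carried by 260 of 1305 C form sequences (members included) and by 5764 of 65954 of the T form. In control SMO 3 it was carried by 90 of 596 and by 6495 of 74222. Members were not set against other C form sequences in J partner. The threonine form made up 93.1% of Ighj1 in the C form of control SMO 8 and 75.6% in that of control SMO 3. The C form was different in the 6 libraries where it was frequent. None of its 142553 sequences there held the commonest YGSS spelling, which allows a share of up to 0.00210%, 6.37% to 8.80% held YDGS, and at most 0.0828% of Ighj1 had the threonine form. The origin of these sequences was not tested.

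**Figure D5:**
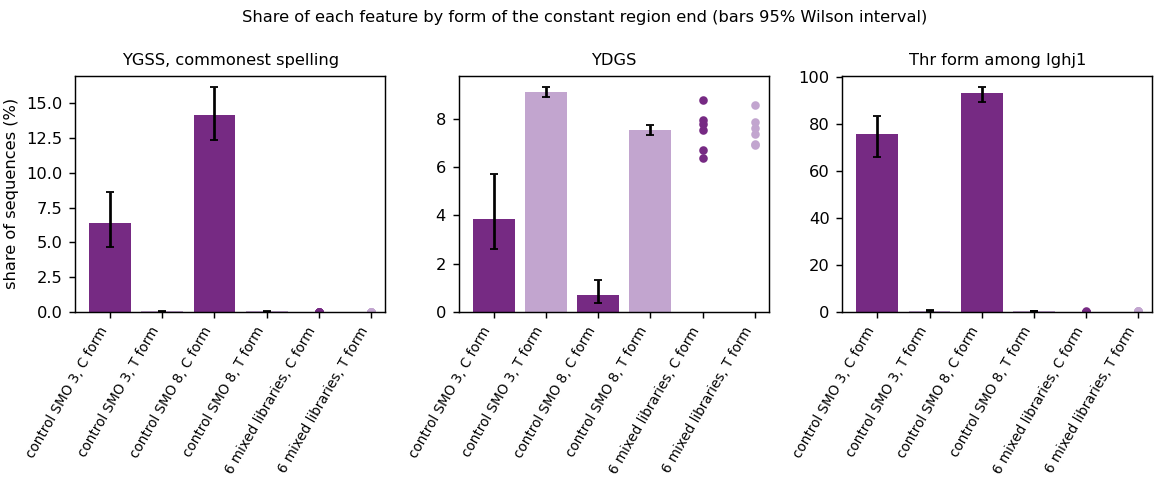
Share of sequences holding the commonest spelling of YGSS, holding YDGS, and, among Ighj1 sequences, with the threonine form, by form of the Cμ end. Bars are control SMO 3 and 8 with 95% Wilson intervals, and points are the 6 libraries in which both forms were frequent. The C form of control SMO 8 holds 14.2% YGSS and 0.690% YDGS, its T form 7.54% YDGS.

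Given next are the 2 member CDR3s of each group with the highest share of the reads of any 1 library. With them are 3 of the 4 found in 2 libraries, those with the highest summed share of reads. Each is shown in its most read spelling, as the nucleotides between the anchors with the YGSS codons in capitals.
control SMO 8 and 3, Ighj1: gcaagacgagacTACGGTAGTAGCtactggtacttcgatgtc
control SMO 8 and 4, Ighj2: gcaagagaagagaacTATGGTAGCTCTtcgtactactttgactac
LFPRLR SMO 8, Ighj2: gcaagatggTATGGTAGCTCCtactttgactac
LFPRLR SMO 6, Ighj2: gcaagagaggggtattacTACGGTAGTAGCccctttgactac
LFPRLR SMO 4 and 5, Ighj3: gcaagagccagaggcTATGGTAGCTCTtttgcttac
The first spelling had 38 reads in control SMO 8 and 2 in control SMO 3, and its translated CDR3 had 43 reads (0.0203% of the reads of control SMO 8) and 4 reads. The second had 20 reads in control SMO 8 and 4 in control SMO 4, where its translated CDR3 had 21 and 4. The third had 28 of the 46 member reads of LFPRLR SMO 8, and the fourth is the 1 read behind the share of LFPRLR SMO 6. The last had 1 read in each of LFPRLR SMO 4 and 5, and its translated CDR3 had 2 and 1. The first and the fourth have the commonest spelling, and the remaining 3 have other spellings.

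Of 252 distinct member CDR3s, 248 were found in 1 library (98.4%), 4 in 2 libraries and 0 in both groups. Over all 216337 distinct CDR3s, 81.7% were found in 1 library and 7.24% in both groups. The difference was not tested. LFPRLR SMO-treated mice held only 32 of the 288 members, so few member CDR3s could have been found in both groups. Control SMO 3 and 8 shared 2, which were 3.92% of the distinct member CDR3s of the former and 1.16% of the latter, against 5.21% and 6.73% of all their distinct CDR3s. Control SMO 4 and 8 shared 1, and so did LFPRLR SMO 4 and 5. Libraries of these last pairs had much else in common, since of the 50 most read V-D-J translations control SMO 4 and 8 shared 34 and LFPRLR SMO 4 and 5 shared 36, against 0 to 12 between libraries outside the 3 pairs that shared most (the third, control SMO 5 and 7, shared 45). No sequence of control SMO 4 had the commonest spelling, against 193 of control SMO 8, and the cause was not tested.

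Across the 12 libraries, the features whose share ordered libraries most like YGSS were CDR3s starting with threonine (Spearman rho 0.517) and Ighj4 (rho 0.462), out of Ighj1 to Ighj4, the Ighd2 motifs, the Ighd4-1 motif NWD and a threonine start. These are descriptions of 12 libraries, among them the shallow LFPRLR SMO 6, and the shares come from the same sequences.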

How the data were processed

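For each of the 12 libraries the authors deposited whole-number read counts of unique nucleotide sequences and of unique translated sequences, without normalization. Libraries held 627 to 227202 reads, and 493 to 67724 translations had a located CDR3 (88.3% to 93.0%), which sets the precision of each share. The steps that merged and filtered the reads are not given in the sources used here. CDR3s ran from the residue after [YF][YF]C, ending at residue 16 to 30, to the residue before the last WG[QAT]GT, and J was read from the residues that follow. Each unique translation counted once. Python 3.11.15, NumPy 2.4.6, SciPy 1.17.1 and Biopython 1.88 were used. Groups were compared by exact Mann–Whitney *U* tests (924 arrangements, smallest p 0.00216) and members with other CDR3s by exact sign-flip tests over libraries, with Benjamini-Hochberg adjustment. The location step recovered 100% of 5000 simulated sequences. These used VH ends that the same step had already located, CDR3s without cysteine or tryptophan, and only the alanine form of Ighj1. The recovery therefore checks the code only, and the threonine form was not tried. Libraries were grouped by the treatment label and numbered by title, and mice are assumed separate as the labels give them, so p-values measure the spread between these libraries. The members and lists were chosen with earlier results of these data known. Printed segments, motifs and CDR3s followed a rule of commonest spellings, highest share of the reads of 1 library per group, and most libraries. YDGS, the 2 spellings, the Ighj1 forms and the Cμ forms were examined after values were seen. Germline D sequences and the authors' HighV-QUEST annotation were not analysed here.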

Additional observations from a re-analysis of the deposited data

Results flagged for a closer look

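A gap test within each group of 6 libraries was applied to 23 sets of values and marked 9. Its nominal chance rate of about 1 group in 20 need not hold for uneven shares that rest on few members. The sets also overlap, so the 9 marks are not separate results. The share of members by sequences stood apart in control SMO 8 (0.331%, the nearest control library 0.0794%) and in LFPRLR SMO 6 (0.203%, nearest 0.0357%). By reads the same libraries stood apart, at 0.136% and 0.176%. The share with the commonest spelling stood apart in control SMO 8 (0.323%, nearest 0.0719%) and in LFPRLR SMO 6 (0.203%). Each value of LFPRLR SMO 6 is 1 sequence. Other spellings stood apart in LFPRLR SMO 8 (0.0357%, nearest 0.0119%) and, as a low value, in control SMO 5 (0). A count of 0 in control SMO 5 allows a share of up to 0.0103%, above the nearest control value of 0.00591%. The Ighj4 share of members was 100% in control SMO 7, where there were 4 members.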

How the results depend on the processing

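Of the comparisons between groups, none passed an adjusted p of 0.05 in the main setting or under any alternative. Their differences of medians (LFPRLR SMO minus control SMO) changed sign as follows, and the cause was not tested. For the share of members by sequences the values were -0.00547 percentage points with at least 2 reads, -0.000222 with YYGSS or YGSSY as the rule, -0.0284 with the 3 pairs averaged, -0.0268 as a difference of means and -0.0233 with labels permuted within library sets. For the share by reads they were -0.00214, -0.00107, -0.0146 (averaged pairs), -0.00322 (library sets) and -0.000604 without the commonest spelling. Under the replicate block over the 5 shared numbers, a paired test whose smallest exact p is 0.0625, they were -0.00548 (exact p = 0.375) and -0.000477 (exact p = 0.438), and no call changed. The numbers come from titles only, and deviations of same-numbered libraries correlated from -0.686 to 0.563. Member length was 0.75 residues without control SMO 3 and 8. Residues after the motif gave 0.875 with at least 2 reads, 0.0616 with averaged pairs, 0.0116 in means and 0.567 without control SMO 3 and 8. The Ighj2 share of members gave 13.5 percentage points by reads, 54.2 with at least 2 reads, 0.969 with each distinct CDR3 once and 17.1 with YYGSS or YGSSY, and the Ighj3 share gave -7.32 with at least 2 reads and -9.24 with averaged pairs.

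The greater length of members than of the rest kept its direction under every alternative, and it no longer passed after adjustment with at least 2 reads (2.70 residues, 8 libraries left), with each distinct CDR3 once (1.29), with averaged pairs (1.28), without control SMO 3 and 8 (1.28), and within the library sets of 6 (1.28 and 2.01). It passed by reads, in the nucleotide tables, with YYGSS or YGSSY and without the commonest spelling. The Ighj3 difference passed with YYGSS or YGSSY (-27.1 percentage points, adjusted exact p = 0.0195), and was 0.230 in means and 6.41 without the commonest spelling. The Ighj1 difference was 3.06 with YYGSS or YGSSY, 3.13 in means and 2.57 in the set with few C forms, and the Ighj2 difference was -0.834 by reads and -11.7 with at least 2 reads. Against the Ighd2 CDR3s, length gave -0.00340 with each distinct CDR3 once, -0.107 with averaged pairs, and -0.155 both without control SMO 3 and 8 and in the set with many C forms. Residues before gave -0.283 with at least 2 reads and -0.0293 without control SMO 3 and 8, and residues after gave -0.0116 with averaged pairs and -0.0679 in means.

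With each library left out, the share by reads ran from -0.000364 to 0.00167, member length from -0.873 to 0.75, the Ighj2 share from -13.3 to 5.98, the length above the rest from 1.28 to 1.99, the Ighj4 difference from -28.1 to -28.0, and the length above the Ighd2 CDR3s from -0.107 to 0.628. The motif test called 0 motifs under each of its alternatives. At an unadjusted exact p under 0.05 were 15 of 193 motifs (at least 0.5%), 2 of 29 (at least 2%) and 12 of 90 (by reads). It was 5 of 67 with library sets and 235 of 2323 with the 0.05% limit. Leaving out control SMO 3 and 8, leaving out the commonest spelling and the 0.05% limit were chosen after the data were seen. No located translation held an undetermined residue, so leaving such residues out changed nothing. The shares of all libraries but control SMO 3 and 8 rest on 15 or fewer members each. Depth was very low only in LFPRLR SMO 6 (493 located CDR3s), while control SMO 9 held 4 members among 67724.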
